A study of Mus musculus with 15 samples.

Results

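The Hox cluster genes were followed through 15 mouse cell lines, 12 with the genotype label AKP and 3 with the label AP. Members were taken by symbol alone: every gene whose platform symbol is Hoxa, Hoxb, Hoxc or Hoxd followed by a number was included, which gave 33 of the 18193 genes with a probe set of their own. There were 9 in HoxA, 9 in HoxB, 7 in HoxC and 8 in HoxD. A probe set is a group of short probes for one transcript, and each gene is represented by its probe set with the highest mean over the 15 lines. The labels spell out neither AKP nor AP and name no tissue. By their labels AKP 6 came from an adenoma, and the remaining 11 AKP lines and the 3 AP lines from tumours. All lines were grown without treatment in the same medium and measured once, on an Affymetrix mouse expression array. Of the AKP lines 9 are labelled female and 3 male, and of the AP lines 1 female and 2 male. Nothing in the labels says whether a line is a single clone or whether lines share an animal. A pair number stands on 7 of the 12 AKP lines and 1 of the 3 AP lines, AP 1; each number occurs once, so it links no lines.

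Hox genes encode transcription factors with a homeodomain. They lie in 4 clusters, on mouse chromosomes 6 (HoxA), 11 (HoxB), 15 (HoxC) and 2 (HoxD), and within a cluster the genes are numbered from the end used first and most anteriorly in the embryo to the end used last and most posteriorly. Adult cells keep part of this pattern, so that the set of Hox genes in use often reflects the place in the body a cell came from, and in the gut the high-numbered genes mark its hind part. Polycomb proteins hold the silent part of a cluster in a repressed state, and trithorax proteins keep the active part in use.

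The deposited log2 values had array medians between 3.91 and 4.17. Values below 3 formed a crowded floor that took in 35.9% to 39.5% of each array's probe sets. There are no detection calls, so a low value means only that the probe set was near that floor. Probe sets differ in brightness and the levels of different genes were therefore not set against each other; a gene is described below as high in a line at a log2 value of 6 or more. Lines AP 1 and AKP 1 stood apart from the rest, and results that rest on them are given with and without them. The median of 14 fibroblast and smooth muscle markers was 12.5 in AKP 1, 9.73 in AKP 8 and at most 5.99 in the other 10 AKP lines, against 13.6 in AP 1, 7.21 in AP 2 and 6.98 in AP 3. The median of 10 markers of simple and intestinal epithelium ran from 4.09 in AKP 10 to 12.1 in AKP 9, and was 5.90 in AKP 1, against 2.91 in AP 1, 9.94 in AP 2 and 8.02 in AP 3. Haematopoietic and endothelial markers had medians of at most 3.94 in every line, but single markers were higher. Among them were Cd68 at 10.94 in AKP 1, Csf1r at 8.99 in AP 3, and Lyz2 at 8.61 and Tek at 7.98 in AP 1. Cd68 was not particular to AKP 1. It lay at 10.78 in AKP 2, 10.76 in AKP 4 and, at its lowest, 3.69 in AKP 7. The AP lines had Cd68 at 4.91, 3.96 and 5.13 in AP 1, AP 2 and AP 3. Its difference was 3.74 (limma adjusted p = 0.16). The labels do not say whether the stromal markers come from the cells of a line or from admixed cells, and their part in the results was not tested. In such whole-culture RNA, fewer cells of a type and less RNA per cell cannot be told apart. The sex labels of AKP 11, AP 3 and AKP 5 go against the Y-linked gene Eif2s3y, which lay at 12.71 in AKP 11 and 8.47 in AP 3, both labelled female, and at most at 3.32 in the other lines labelled female. AKP 5, labelled male, had it at 3.24, against 11.14 to 12.22 in the other lines labelled male. The X-linked gene Xist lay between 10.46 and 13.71 in most lines labelled female. Xist was low in AKP 5 too (2.70), and AKP 2, labelled female, had Xist at 2.97 and Eif2s3y at 3.08. The 2 genes therefore do not settle the sex of AKP 5 or AKP 2. Results without AP 3 are given for Hoxb9, Hoxc4, Hoxd8 and Hoxd9 and for the count of all genes called, and not for the other members.

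**Figure D1:**
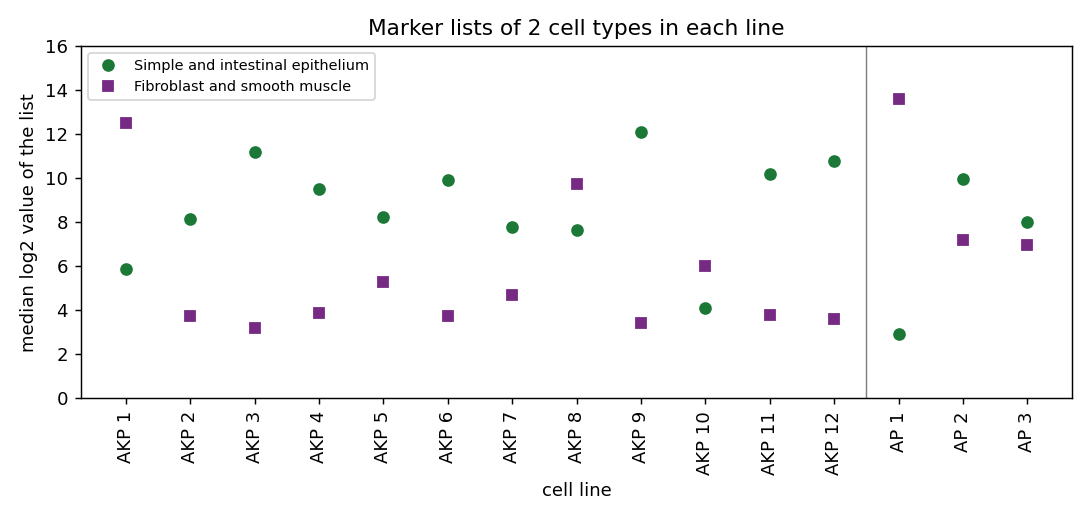
Median deposited log2 value (vertical axis) of the 10 epithelial markers (circles) and the 14 fibroblast and smooth muscle markers (squares) in each line (horizontal axis), AKP lines left of the vertical line and AP lines right of it. The stromal list was highest in AP 1 (13.6) and AKP 1 (12.5).

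The promoters of 4 HoxD members are shown because their values separated the lines: Hoxd8 and Hoxd9 are neighbours that were high in the same 6 lines, and Hoxd10 and Hoxd13 reached their highest value in the same line. Each sequence holds the 250 bases before the gene's start in RefSeq on GRCm38.p6, 5′ to 3′, with CpG dinucleotides, the sites at which mouse DNA is methylated, in capitals.
Hoxd8, chr2:74704365-74704614, + strand: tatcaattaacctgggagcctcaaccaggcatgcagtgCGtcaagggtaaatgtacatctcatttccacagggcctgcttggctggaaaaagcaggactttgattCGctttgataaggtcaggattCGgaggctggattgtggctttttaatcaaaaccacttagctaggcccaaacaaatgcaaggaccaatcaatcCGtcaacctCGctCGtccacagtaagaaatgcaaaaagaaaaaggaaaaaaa
Hoxd9, chr2:74697513-74697762, + strand: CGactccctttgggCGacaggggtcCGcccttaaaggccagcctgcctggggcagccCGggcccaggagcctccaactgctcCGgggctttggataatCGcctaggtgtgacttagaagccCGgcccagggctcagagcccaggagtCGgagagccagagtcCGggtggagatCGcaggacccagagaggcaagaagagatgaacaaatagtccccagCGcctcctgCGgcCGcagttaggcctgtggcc
Hoxd10, chr2:74691641-74691890, + strand: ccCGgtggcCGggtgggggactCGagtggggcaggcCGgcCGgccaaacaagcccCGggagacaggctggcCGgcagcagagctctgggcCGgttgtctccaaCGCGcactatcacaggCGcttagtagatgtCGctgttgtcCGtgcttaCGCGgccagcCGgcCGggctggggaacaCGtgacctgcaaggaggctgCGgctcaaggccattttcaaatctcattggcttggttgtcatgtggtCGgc
Hoxd13, chr2:74667975-74668224, + strand: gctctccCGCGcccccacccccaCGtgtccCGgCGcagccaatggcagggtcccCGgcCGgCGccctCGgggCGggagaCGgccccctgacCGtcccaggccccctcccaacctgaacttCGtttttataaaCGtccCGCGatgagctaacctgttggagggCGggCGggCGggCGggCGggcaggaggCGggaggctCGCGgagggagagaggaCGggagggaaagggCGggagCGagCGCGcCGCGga
The windows held 6 CpGs before Hoxd8, 13 before Hoxd9, 20 before Hoxd10 and 31 before Hoxd13. The median over all 32851 RefSeq windows of this length was 6, and 94.8% of them held fewer than that of Hoxd13. Of the 33 members, 19 had an entry, with 21 windows in all and a median of 13 CpGs. Motifs were searched on both strands. The letters TTTATNG, a site type of posterior Hox and Cdx factors, were in 0 of the 21 Hox windows and in 9.81% of all windows. The Pbx-Hox composite TGATNNAT was in 3 of the Hox windows, before Hoxa2, Hoxb1 and 1 start of Hoxd11, and in 7.68% of all windows. The Meis type core TGACAG was in 2, before Hoxa2 and Hoxa3, and in 15.9% of all windows. The TATA box letters TATAAA were in 2, before Hoxd13 and 1 start of Hoxa10, and in 12.4% of all windows. A match says only that these letters are there.

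Some Hox members were high in every line and others in none. At a value of 6 or more, 8 members were high in all 15 lines: Hoxa3, Hoxa5, Hoxa7, Hoxa9, Hoxa10 and Hoxa11 of HoxA, and Hoxb3 and Hoxb9 of HoxB. The share of all genes high in all 15 lines was not counted, so this number is a description only. In contrast, 11 members stayed below 6 in every line, namely Hoxb1, Hoxb7, Hoxc4, Hoxc5, Hoxc6, Hoxc9, Hoxc10, Hoxd1, Hoxd3, Hoxd11 and Hoxd12. The remaining 14 members were high in some lines only. By cluster, 9 of 9 HoxA, 7 of 9 HoxB, 2 of 7 HoxC and 4 of 8 HoxD members were high in at least 1 line. The 2 HoxC members were high in AP 1 alone. Because probe sets differ in brightness, these counts do not rank the clusters. A line had between 10 high members, in AKP 9, and 17, in AKP 3; AKP 6, the adenoma line, had 13. Over the whole array 63.0% of the genes were high in at least 1 line, and among the Hox members 66.7% were. The members varied widely: the range over the lines was at least 4 on the log2 scale for 17 of 33 members (51.5%), and for 17.3% of all genes.

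**Figure D2:**
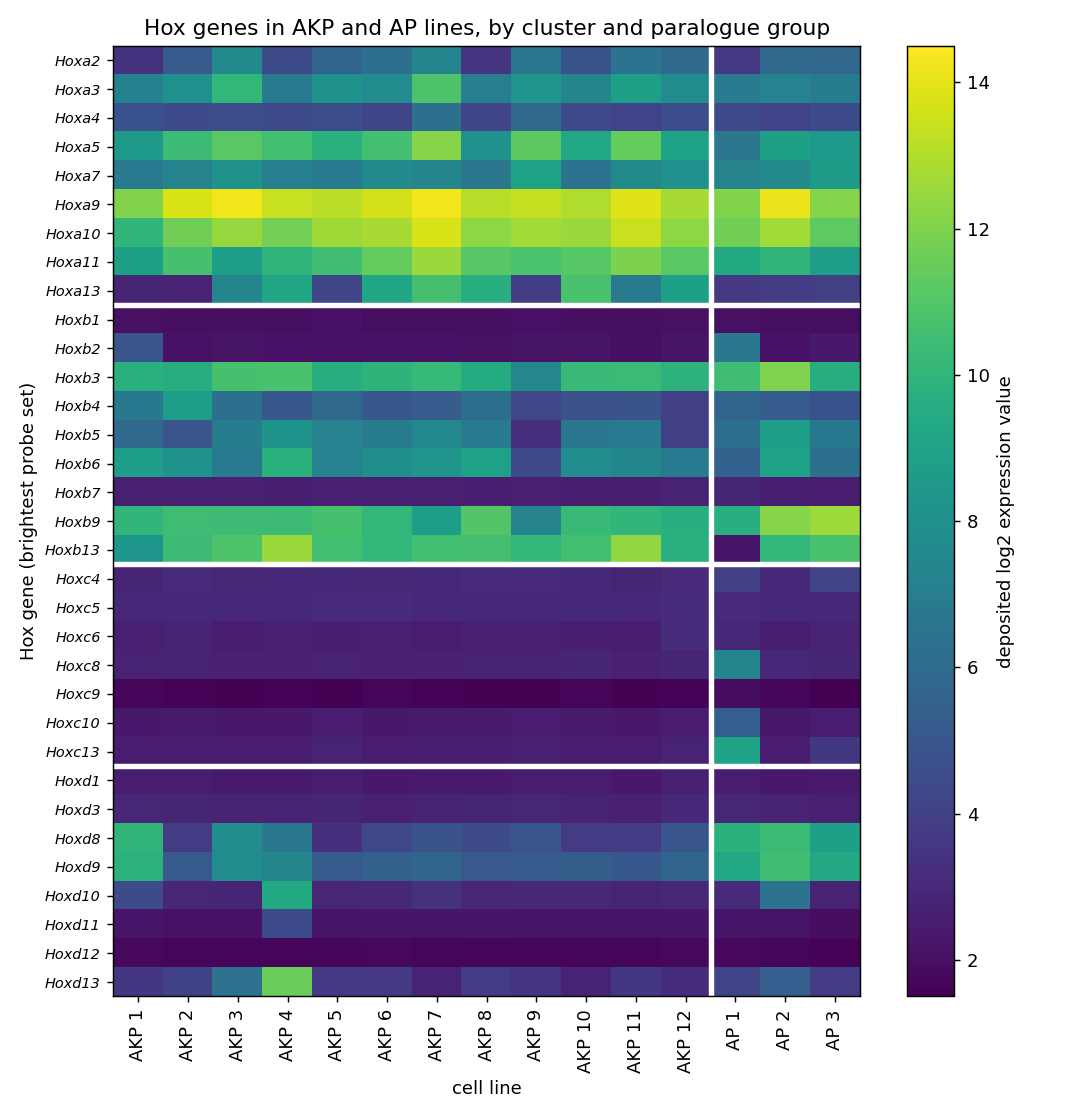
Deposited log2 values (colour) of the 33 Hox genes (rows, by cluster and number, white lines between clusters) in the 12 AKP lines (left) and the 3 AP lines (right). Hoxa9 lay between 12.03 and 14.22 in all lines, while no HoxC gene reached 6 outside AP 1; colours compare lines within a row, not rows.

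Setting AKP against AP lines addresses which Hox genes go with the genotype label. At a limma adjusted p under 0.05, 0 members were higher and 1 was lower in AKP. This share of 3.03% stands beside 1.90% called among all 18193 genes, and beside 1.10% called lower and 0.792% called higher in AKP. The 3 AP lines limit what such a count can find, so members that were not called may still differ. The median log2 difference was 0.0022 over the members and 0.012 over all genes, with 17 members higher and 16 lower on average in AKP. Centring each array on its median shifted the differences of all genes by 0.10 and turned the direction of Hoxb7, Hoxc9 and Hoxd13, all within their errors; the share of called genes that were higher in AKP was 41.7% as deposited and 61.4% after centring. In 0 of 33 members were the groups free of overlap, against 2.13% of all genes. At an unadjusted p under 0.05 there were 9 members, Hoxa5 and Hoxb13 with the higher mean in AKP and Hoxb9, Hoxc4, Hoxc8, Hoxc10, Hoxc13, Hoxd8 and Hoxd9 with the higher mean in AP; of all genes 16.5% passed this limit.

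Hoxd8 and Hoxd9, trunk and limb patterning genes in the middle of HoxD, had the largest log2 differences between the labels. Hoxd8 reached 10.01 in AKP 1, 7.84 in AKP 3 and 6.71 in AKP 4 and stayed between 3.30 and 4.96 in the other 9 AKP lines, against 9.86, 10.37 and 8.84 in AP 1, AP 2 and AP 3. Hoxd9 reached 9.93 in AKP 1, 7.80 in AKP 3 and 7.43 in AKP 4 and stayed between 5.09 and 5.73 in the other 9 AKP lines, against 9.29, 10.51 and 9.33 in AP 1, AP 2 and AP 3. AKP 1 alone overlapped the AP values for either gene, and the other 11 AKP lines were lower than all 3 AP lines. Hoxd8 averaged 5.24 ± 1.98 in AKP (SD, n = 12) and 9.69 ± 0.78 in AP (SD, n = 3), a log2 difference of -4.46 ± 1.15 (SE; limma adjusted p = 0.067). Hoxd9 averaged 6.10 ± 1.51 in AKP (SD, n = 12) and 9.71 ± 0.69 in AP (SD, n = 3), a log2 difference of -3.62 ± 0.88 (SE; limma adjusted p = 0.053). Neither passed the threshold with all lines, and leaving out AP 1 or AP 3 gave adjusted p-values up to 0.14 for Hoxd8 and 0.13 for Hoxd9. Without AKP 1 both did, at -4.89 for Hoxd8 (limma adjusted p = 0.0073) and -3.96 for Hoxd9 (limma adjusted p = 0.0031). Without both AP 1 and AKP 1 they differed by -4.81 ± 0.98 (limma adjusted p = 0.023) and -4.17 ± 0.70 (limma adjusted p = 0.0068). In that fit 2 of 33 members and 2.76% of all genes were called. AKP 1 was the only AKP line among the AP values, so leaving it out had to widen both differences. These fits are therefore no separate support. Of the fits without 1 line, each gene passed in 1, that without AKP 1. The exact permutation test over the 455 splits of the lines gave p = 0.0066 for each gene alone, two-sided and not adjusted. The smallest value it can give is 0.0022. Hoxc8, high in AP 1 only and near the floor elsewhere, had p = 0.0044 in this test. For Hoxc8 too, 11 AKP lines were lower than all 3 AP lines. The second probe set of Hoxd8 differed by -4.02, with AKP 3 at 5.81 and AKP 4 at 4.20.

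The 4 lines highest in Hoxd8 and Hoxd9, AKP 1 and the 3 AP lines, were among the 5 lines with the highest stromal marker medians (12.5 in AKP 1, against 13.6, 7.21 and 6.98 in AP 1, AP 2 and AP 3), and the part of these markers in the difference was not tested. The other of the 5, AKP 8, with a stromal median of 9.73, had Hoxd8 at 4.54 and Hoxd9 at 5.12, and AKP 3, with 3.21, had them at 7.84 and 7.80.

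In the authors' deposited table of 501 entries these were the 2 Hox genes listed, with group means of 4.83 in AKP and 9.69 in AP for Hoxd8 (step-up adjusted p = 0.016) and 5.81 in AKP and 9.71 in AP for Hoxd9 (step-up adjusted p = 0.0081). The design text of the series counts 10 AKP lines. Without AKP 1 and AKP 8 the AKP means were 4.83 and 5.81 here. The limma adjusted p-values were then 0.0089 for Hoxd8 and 0.0043 for Hoxd9, and 4.00% of all genes were called. This fit too leaves out AKP 1, the AKP line among the AP values.

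**Figure D3:**
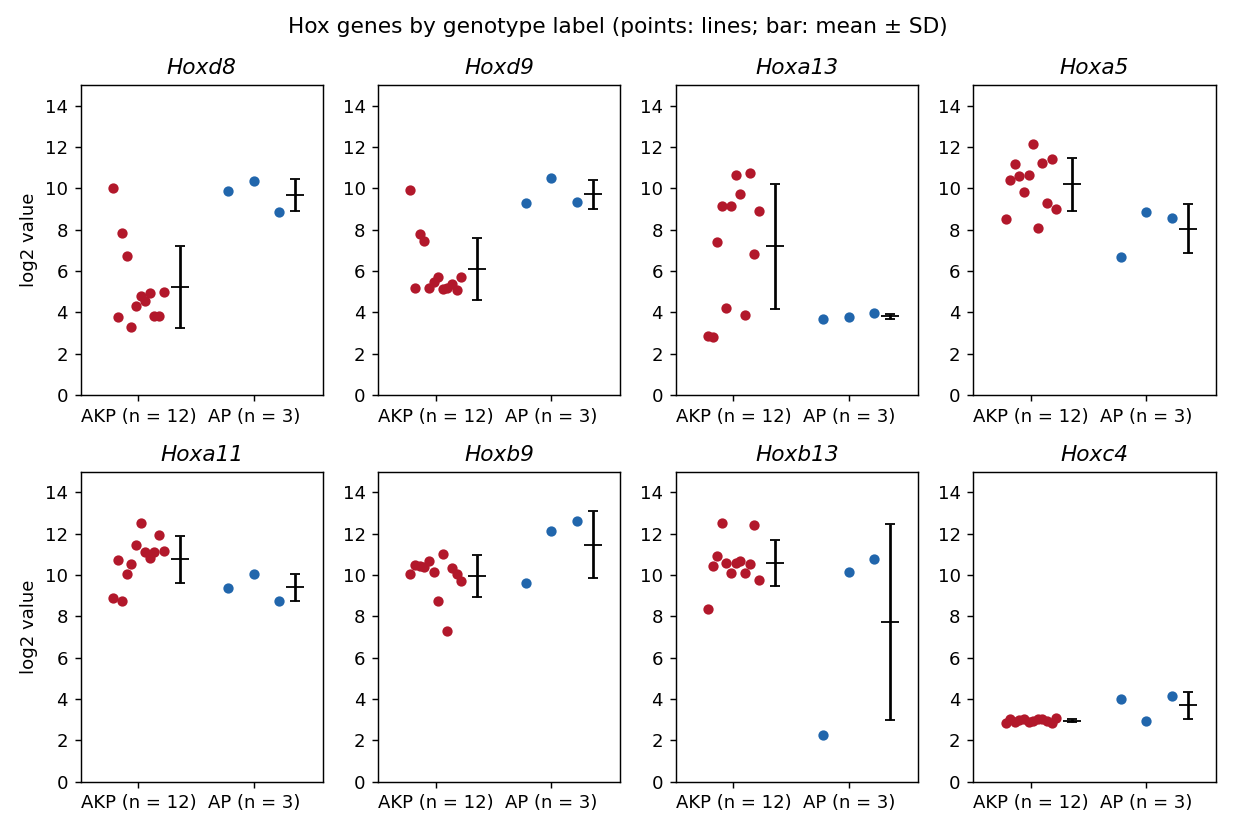
Deposited log2 values (vertical axis) of 8 Hox genes in AKP (red, n = 12) and AP lines (blue, n = 3), a point per line, with the mean and SD as bars. Hoxd8 and Hoxd9 are high in all 3 AP lines and in AKP 1, and Hoxa13 is spread from 2.82 to 10.75 in AKP while the AP lines lie between 3.66 and 3.94.

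Farther toward the posterior end, HoxD members were high in few lines or in none. Hoxd10, a gene of lumbar and hindlimb levels, reached 9.41 in AKP 4, 4.50 in AKP 1 and at most 3.38 in the other AKP lines, against 3.08, 6.45 and 2.82 in AP 1, AP 2 and AP 3. Hoxd13, which patterns digits and the end of the gut, reached 11.58 in AKP 4, 6.33 in AKP 3 and at most 4.05 in the other AKP lines, against 4.16, 5.40 and 3.804 in AP 1, AP 2 and AP 3. AKP 4 was thus the highest line for both, and its Hoxd11 value of 4.42 was also the highest, where no other line exceeded 2.28. A second probe set of Hoxd13 lay at 9.05 in AKP 4 and at 3.52 in AKP 3. Hoxd12 stayed on the floor in AKP 4 (1.74), as did Hoxd1 (2.44) and Hoxd3 (2.78). Between the groups Hoxd10 and Hoxd13 differed by -0.49 ± 1.19 and -0.08 ± 1.42 (SE; limma adjusted p = 0.88 and 0.99). The sole measured non-coding RNA of this cluster, Hoxd3os1, lay at 9.13 in AKP 1 and at most 3.64 in the other AKP lines, against 3.53, 9.53 and 7.06 in AP 1, AP 2 and AP 3. It was thus low in AP 1, AKP 3 and AKP 4, where Hoxd8 and Hoxd9 were high, and differed by -3.07 ± 1.24 (SE; limma adjusted p = 0.24).

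**Figure D4:**
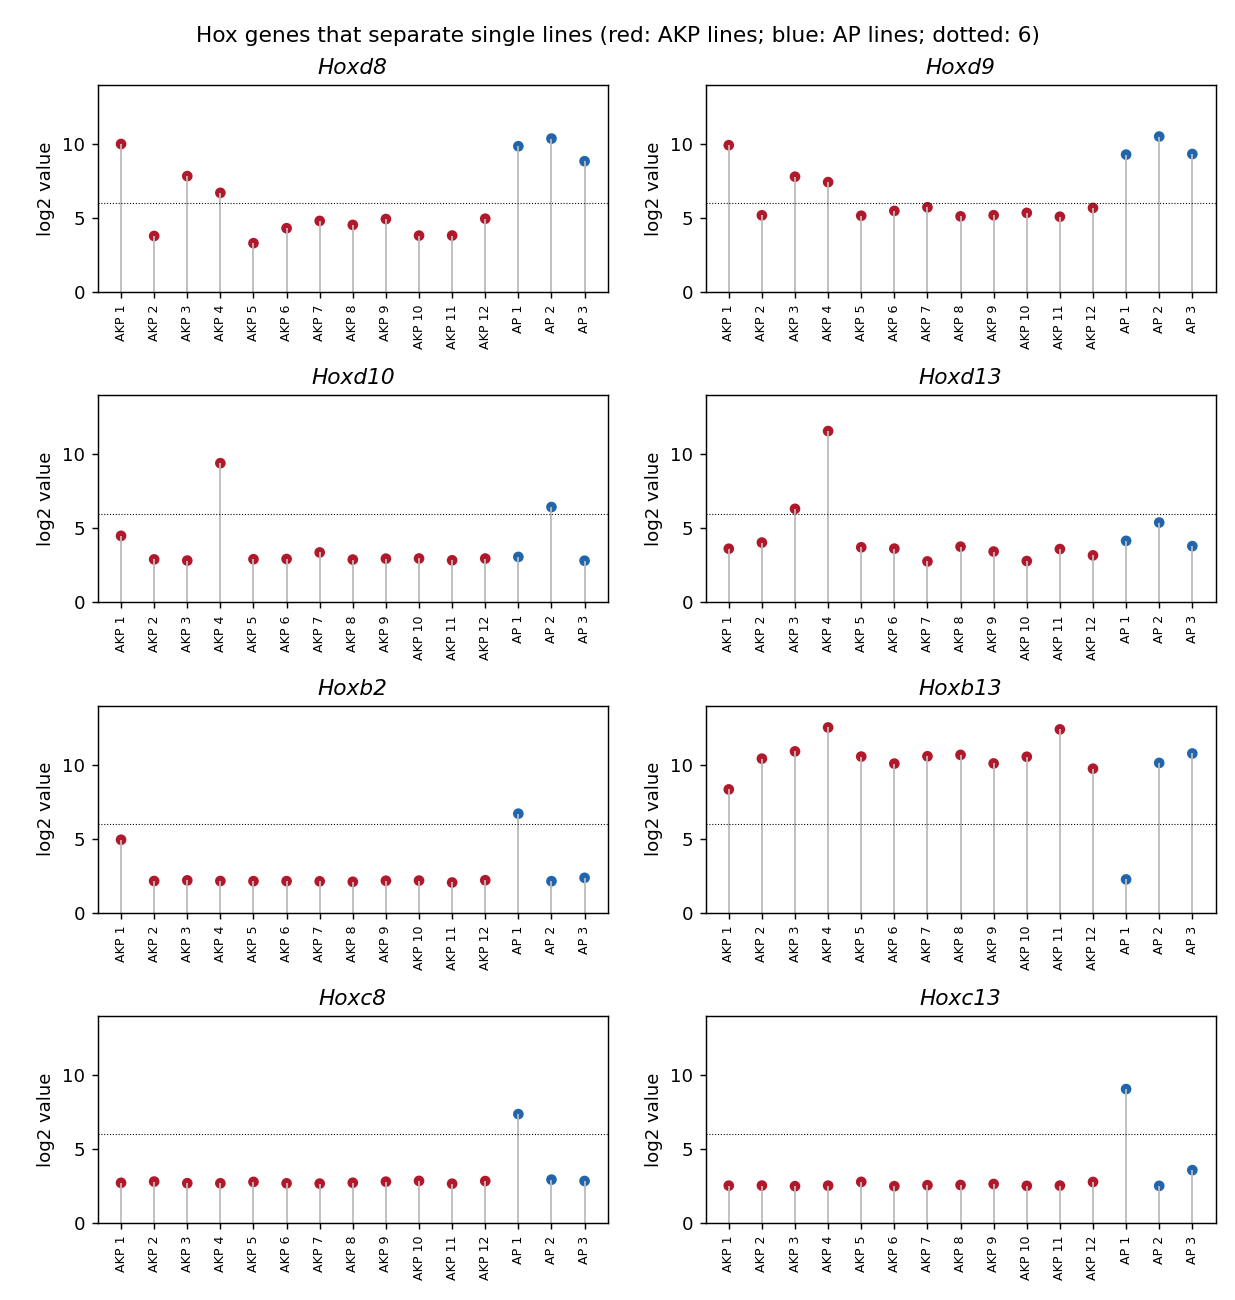
Deposited log2 values (vertical axes) of 8 Hox genes in every line, AKP lines in red on the left and AP lines in blue on the right; the dotted line marks 6. AKP 4 stands out for Hoxd10 (9.41) and Hoxd13 (11.58), and AP 1 for Hoxb13 (2.26), Hoxc8 (7.37) and Hoxc13 (9.07).

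In HoxA 6 of 9 members were high in every line, among them Hoxa9, Hoxa10 and Hoxa11. Hoxa9, known for its role in blood stem cells and leukaemia, had its lowest, median and highest values at 12.04, 13.40 and 14.22 in AKP, against 12.03, 14.10 and 12.10 in AP 1, AP 2 and AP 3. Hoxa10 and Hoxa11, which pattern the limb and the female reproductive tract, lay between 10.05 and 13.78 and between 8.72 and 12.54 in AKP, against 11.29 to 12.71 and 8.76 to 10.07 in AP. The groups overlapped for each of these genes, although for Hoxa11 9 of the 12 AKP lines were higher than all 3 AP lines. None passed the threshold, with limma adjusted p-values of 0.54 for Hoxa9, 0.75 for Hoxa10 and 0.33 for Hoxa11. A second probe set of Hoxa10 stayed between 3.11 and 4.31 in all lines and did not show the gene's high level.

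Hoxa13, the last gene of the cluster, which acts in the hindgut, genital tract and limb tip, divided the AKP lines. It was high in 8 of 12 AKP lines and in 0 of 3 AP lines. The 8 AKP lines lay between 6.81 in AKP 11 and 10.75 in AKP 10, while AKP 1, AKP 2, AKP 5 and AKP 9 lay at 2.85, 2.82, 4.20 and 3.88, against 3.66, 3.79 and 3.94 in AP 1, AP 2 and AP 3. The AP values thus lay within the range of the 4 low AKP lines. The mean was 7.19 ± 3.01 in AKP (SD, n = 12) and 3.796 ± 0.14 in AP (SD, n = 3), a log2 difference of 3.39 ± 1.73 (SE; limma adjusted p = 0.35). Hoxa11os, the antisense RNA of Hoxa11 farther inside the cluster, lay between 7.69 in AKP 3 and 12.65 in AKP 7. In AP 1, AP 2 and AP 3 it lay at 8.49, 9.31 and 8.67 (limma adjusted p = 0.20). Evx1, a homeobox gene next to Hoxa13, lay at 9.77 in AKP 10 and 7.75 in AKP 4 and below 6 in the other AKP lines, against at most 3.06 in AP (limma adjusted p = 0.51). Whether the labelled RNA keeps the strands of Hoxa11 and Hoxa11os apart is not stated in the sources used here.

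Of the anterior and middle HoxA genes, Hoxa5, a regulator of lung and gut mesenchyme, had the largest difference. It lay at 8.06, 10.50 and 12.12 (lowest, median, highest) in AKP, against 6.68, 8.87 and 8.56 in AP 1, AP 2 and AP 3, so that 10 of 12 AKP lines exceeded every AP line. The difference was 2.15 ± 0.78 (SE, limma adjusted p = 0.19), and 1.63 ± 0.84 without AP 1 and AKP 1 (limma adjusted p = 0.34). A second probe set of Hoxa5 differed by 1.06 only. AKP 7 was the highest line for Hoxa3 (10.89), Hoxa4 (6.30), Hoxa5, Hoxa10 and Hoxa11. The other HoxA members peaked elsewhere, Hoxa2 and Hoxa9 in AKP 3, Hoxa7 in AKP 9 and Hoxa13 in AKP 10. Hoxa4 was high in AKP 7 only, and AKP 9 followed at 5.95. Hoxa2, a gene of the hindbrain and branchial arches, was high in 5 AKP lines, up to 7.66 in AKP 3, against 3.69, 5.97 and 5.79 in AP 1, AP 2 and AP 3 (limma adjusted p = 0.83). Hoxa3 and Hoxa7 differed by 1.17 ± 0.70 and -0.38 ± 0.45 (SE; limma adjusted p = 0.44 and 0.73). For Hoxa3, 2 of its 4 probe sets stayed between 2.07 and 2.54 in all lines.

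In HoxB the posterior gene Hoxb13, a marker of prostate and distal colon epithelium, was high in all lines but one. It lay at 8.34, 10.55 and 12.53 (lowest, median, highest) in AKP, against 2.26, 10.13 and 10.77 in AP 1, AP 2 and AP 3. The mean difference of 2.85 ± 1.32 (SE; limma adjusted p = 0.30) came to 0.33 ± 0.64 without AP 1 and AKP 1, the lines with the lowest values. AP 1 also had the lowest median of the epithelial markers. Hoxb9, which patterns the ribs, lay at 7.30, 10.23 and 11.00 in AKP, against 9.63, 12.15 and 12.62 in AP 1, AP 2 and AP 3. No AKP line reached AP 2 or AP 3, but only AKP 7 and AKP 9 lay below AP 1. The difference was -1.52 ± 0.70 with all lines (SE, limma adjusted p = 0.29). It was -2.45 ± 0.74 without AP 1 and AKP 1 (SE, limma adjusted p = 0.11), and -0.95 without AP 3 (limma adjusted p = 0.75).

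The middle HoxB genes were lowest in AKP 9. Hoxb5, of lung and enteric nervous system development, lay at 3.27 in AKP 9 and 3.96 in AKP 12 and between 4.95 and 8.21 in the other AKP lines, against 6.28, 8.81 and 6.77 in AP 1, AP 2 and AP 3. Hoxb6 lay at 4.34 in AKP 9 and between 6.85 and 9.81 in the other AKP lines, against 5.56, 8.96 and 6.31 in AP 1, AP 2 and AP 3. Hoxb3, Hoxb5, Hoxb6 and Hoxb9 all had their lowest value in AKP 9, and its Hoxb3 value of 7.51 was the only one below 9. Hoxb4, known for expanding blood stem cells, was the exception, with 8.74 in AKP 2 and 3.94 in AKP 12 at its ends, against 5.73, 5.27 and 4.77 in AP 1, AP 2 and AP 3. Between the groups limma gave adjusted p-values of 0.52 for Hoxb3, 0.87 for Hoxb4, 0.65 for Hoxb5 and 0.73 for Hoxb6. The differences were -0.81 for Hoxb3 and 0.34 for Hoxb4, while their second probe sets differed by -1.78 and 1.08. The Hoxb7 probe set stayed between 2.50 and 2.85 in all lines, while a probe set listed for both Hoxb8 and Hoxb7, which counts as no member, ran from 3.35 in AKP 6 to 8.61 in AKP 3, against 7.57, 9.32 and 7.29 in AP 1, AP 2 and AP 3. The flat Hoxb7 values therefore do not show that the gene was off.

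Hoxb2, a hindbrain gene at the anterior end of HoxB, was raised in the lines with the most stromal marker expression. It lay at 4.94 in AKP 1 and at most 2.20 in the other AKP lines, against 6.70, 2.14 and 2.36 in AP 1, AP 2 and AP 3. The difference of -1.36 ± 0.78 (SE; limma adjusted p = 0.42) came to -0.11 ± 0.06 without these lines (limma adjusted p = 0.38). AKP 8, with a stromal median of 9.73, had Hoxb2 at 2.10. Hoxb1, the gene beside it, stayed between 1.99 and 2.15 in all lines.

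No HoxC member was high outside AP 1. Hoxc13, a gene of hair and nail, lay between 2.50 and 2.79 in AKP, against 9.07, 2.52 and 3.58 in AP 1, AP 2 and AP 3. Hoxc8, of thoracic levels, lay between 2.67 and 2.86 in AKP, against 7.37, 2.94 and 2.85 in AP 1, AP 2 and AP 3. Hoxc10, of hindlimb levels, lay between 2.37 and 2.54 in AKP, against 5.41, 2.35 and 2.51 in AP 1, AP 2 and AP 3. AP 1 was thus the highest line for all of these, and AKP 1, the line closest to it in stromal markers, had 2.54, 2.73 and 2.40 for Hoxc13, Hoxc8 and Hoxc10. With all lines the differences were -2.47, -1.64 and -0.98 (limma adjusted p = 0.17, 0.21 and 0.27), and without AP 1 alone Hoxc10 differed by 0.0076, Hoxc8 by -0.15 and Hoxc13 by -0.46. Hoxc13 passed only without AP 2 (-3.74, limma adjusted p = 0.030). Hoxc5, Hoxc6 and Hoxc9 did not exceed 3.13 in any line, and another probe set of Hoxc6 was 2.70 in AP 1, against at most 1.52 elsewhere.

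Hoxc4, which patterns thoracic vertebrae, was the 1 member past the threshold, at values close to the floor. It lay at 2.83, 2.96 and 3.06 (lowest, median, highest) in AKP, against 3.98, 2.93 and 4.16 in AP 1, AP 2 and AP 3, so that AP 2 lay among the AKP lines. The mean was 2.96 ± 0.08 in AKP (SD, n = 12) and 3.69 ± 0.67 in AP (SD, n = 3), and the gene fell by 0.73 ± 0.17 in log2 (SE; limma adjusted p = 0.047; exact permutation p = 0.018). The call rested on small margins: it was lost without AP 1 (limma adjusted p = 0.15), without AP 3 (0.19) and without any AKP line other than AKP 8, and held without AP 2 or AKP 8. No line reached 6 for Hoxc4.

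**Figure D5:**
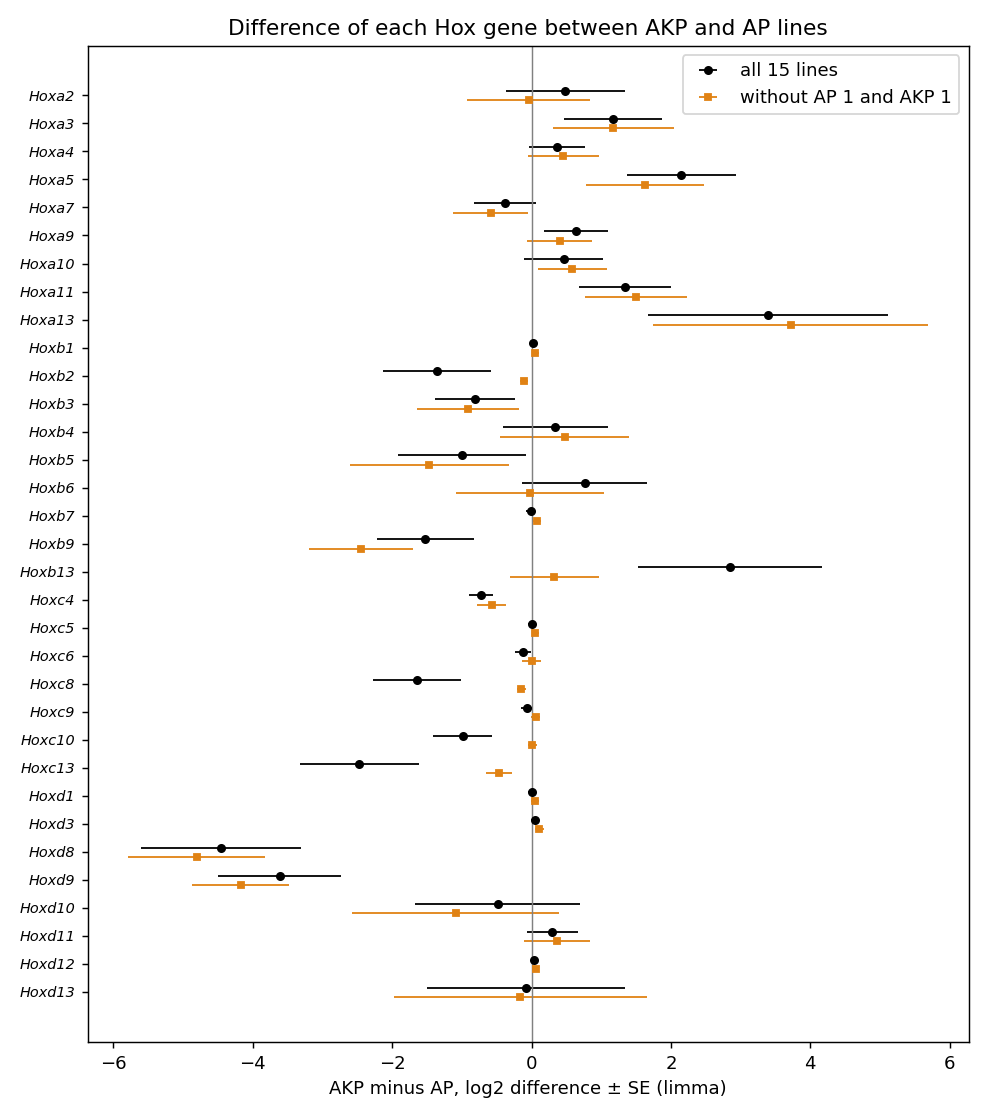
Log2 difference of AKP minus AP lines (horizontal axis) with its SE for the 33 Hox genes (rows, by cluster and number), in all 15 lines (circles) and without AP 1 and AKP 1 (squares). Without these lines Hoxd8 and Hoxd9 differ by -4.81 and -4.17, Hoxb13 by 0.33 and Hoxc8 by -0.15. AKP 1, left out there, was the only AKP line among the AP values of Hoxd8 and Hoxd9.

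No Hox gene was called between the sex labels. With genotype as a covariate limma called 0 of 33 members between lines labelled female and male, and 0% of all genes; at an unadjusted p under 0.05 there were 1 member and 3.16% of all genes. This is a comparison of labels, since those of AKP 5, AKP 11 and AP 3 go against Eif2s3y.

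Genes that act with or on the Hox genes were counted in the same fit. These lists were chosen with earlier results of these data known, so a share in them is a description only. In the trithorax group and demethylase list 2 of 14 measured members (14.3%) rose in AKP and 0 fell, beside 0.792% called higher and 1.10% called lower among all genes. Mllt3, a fusion partner of Kmt2a in leukaemia that belongs to an elongation complex, lay at 8.80 to 10.79 in AKP, against 7.78, 8.88 and 6.93 in AP 1, AP 2 and AP 3, and rose by 1.97 ± 0.40 (SE; limma adjusted p = 0.026). Psip1, which ties the Kmt2a and menin complex to chromatin, lay at 11.85 to 12.89 in AKP, against 9.91, 12.15 and 10.61 in AP 1, AP 2 and AP 3, and rose by 1.51 ± 0.33 (SE; limma adjusted p = 0.034). Kmt2a itself and Kdm6a differed by 0.92 and 0.86 (limma adjusted p = 0.18 and 0.28). The list's median difference was 0.31, beside 0.012 over all genes.

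Of all genes 16.5% had an unadjusted p under 0.05, beside which the counts at that limit in the lists below stand. Among the Polycomb genes 0 of 25 measured members passed and 6 had an unadjusted p under 0.05, with a median difference of 0.30; Cbx7, Phf1, Pcgf3 and Phc2 differed by 1.78, 1.33, -0.45 and 0.66 (limma adjusted p between 0.095 and 0.22). Of the TALE cofactors, homeodomain proteins that bind DNA beside Hox proteins, 0 of 10 passed and 4 had an unadjusted p under 0.05. Their median difference was -0.04, with Pbx3 at -0.85, Pknox2 at -3.01, Pbx2 at 0.67 and Meis2 at -2.67 (limma adjusted p between 0.090 and 0.26). Meis2 lay at 4.24 to 10.20 in AKP, against 9.95, 10.38 and 9.86 in AP 1, AP 2 and AP 3, and Pknox2 was raised in AP 1 (8.77) and AP 3 (4.02). Of the Cdx, ParaHox and Evx genes 0 of 8 passed, with 0 at an unadjusted p under 0.05 and a median difference of 0.10. Cdx2, the intestinal factor upstream of posterior Hox genes, lay at 3.05 to 11.52 in AKP, against 5.76, 3.68 and 4.10 in AP 1, AP 2 and AP 3 (limma adjusted p = 0.41). In the retinoid and axial signal list 0 of 12 passed and 5 had an unadjusted p under 0.05. Its median difference was -0.05, with Rarg at 0.95, Gdf11 at -0.97, Gbx2 at -0.84 and Cyp26b1 at 2.26 (limma adjusted p between 0.20 and 0.26). Of 3 measured non-coding RNAs of the clusters 0 passed, and 2 had an unadjusted p under 0.05.

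The marker lists were also chosen with earlier results of these data known. Of their members, 2 of 14 fibroblast and smooth muscle genes (14.3%) fell in AKP, beside 1.10% of all genes. Col1a1 fell by 5.02 and Lum fell by 0.54 on the log2 scale (limma adjusted p = 0.040 and 0.019), with Lum on the floor in both groups. The list's median difference was -2.54. In the epithelial, haematopoietic and endothelial lists 0 of 10, 0 of 8 and 0 of 8 members passed, with 1, 3 and 3 at an unadjusted p under 0.05, beside 16.5% of all genes, and median differences of 1.76, -0.03 and -0.09.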

How the data were processed

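Each of the 15 lines was measured on 1 Affymetrix mouse array, per the labels. The authors deposited log2 expression values per probe set; background correction, scaling, the software and the build were not stated in the sources used here. A deposited table of the authors' comparison, AKP over AP, holds p-values, t scores, log2 means, a ratio and a fold change, per the file headers. Of 45101 probe sets 64 controls were left out, and 34945 had a single gene in the platform's table, giving 18193 genes. Values were used as deposited, without a filter.

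A linear model per gene was fitted by limma 3.58.1 (R 4.3.3; moderated, two-sided), and genes under 0.05 after Benjamini-Hochberg adjustment were called. Single genes were also tested with an exact permutation test. Replicates are separate lines; p-values rest on their spread, and 3 AP lines limit the precision. The fit was tested on simulated data. Alternatives covered scaling, the probe set rule, a filter on dim genes, the variance model, array weights, the sex covariate, a replicate block and left-out lines. Line values were printed for the called member and for the 14 members with the largest range, at least 4; of the other lists the called members and up to 4 with the lowest p were named. Further line values and the motifs were chosen after values were seen. The members and lists were chosen with earlier results of these data known.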

Additional observations from a re-analysis of the deposited data

How the results depend on the processing

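The count of 1 Hox member called between AKP and AP was 1 with each array centred on its median, with the dimmest genes left out (those under the 40th percentile), and with the trend and robust variance model. The genes behind it differed: with the centring and with that filter the called member was Hoxd9 (limma adjusted p = 0.049 and 0.041). The count was 0 with array weights and 0 with the sex covariate. It was 2 with the mean of all probe sets (Hoxc4 and Hoxd8), and 2, Hoxd8 and Hoxd9, without AKP 1 and AKP 8 and without AP 1 and AKP 1. Leaving out 1 line gave 0 to 2. Of the other lists 4 members were called, 2 with the mean of all probe sets, 1 with array weights, 7 without AKP 1 and AKP 8, and 2 to 9 without 1 line, the 9 without AP 2. Of all genes 345 were called, 153 with array weights, 728 without AKP 1 and AKP 8, and 177 (without AP 3) to 584 (without AP 2) without 1 line; leaving out AKP 8 gave 540, AKP 5 gave 224, AKP 11 gave 219 and AKP 6 gave 216. The cause of these shifts was not tested.

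The titles do not say that equal replicate numbers pair lines. Deviations from the group means correlated at 0.46, -0.04 and -0.06 over genes for numbers 1, 2 and 3. The 0.46 belongs to AP 1 and AKP 1, and such correlations cannot show whether the numbers link lines. With the replicate block 1 Hox member, 4 members of the other lists and 416 genes were called. Between the sex labels 0 Hox members were called under the 5 alternatives run. At a level of 5 or 7 in place of 6, 23 and 20 members were high in at least 1 line. The floor of the arrays limits what can be said of HoxC and anterior HoxD members.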
